A study of Mus musculus with 12 samples.

Results

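The insulin and mTOR signalling regulators described here are the genes Insr, Irs1, Irs2, Pik3r1, Akt2, Foxo3, Sgk1, Ddit4, Eif4ebp1 and Errfi1, chosen by name among the non-control probes of the array. Of these 10 genes, 9 had a probe and all 9 were tested, among 18704 tested genes and unnamed transcripts of the 27774 on the array. Of them, 7 carried the listed name, through 13 probes; Sgk1 was printed under its older name Sgk and Foxo3 under Foxo3a, through 4 more probes, and Irs2 was not analysed here. The mice were male C57BL/6 animals, 8 to 10 weeks old, and every mouse in every group had been adrenalectomized, so that none made its own adrenal glucocorticoid. The 4 groups of 3 mice were HESKOL mice given 1 mg/kg dexamethasone by intraperitoneal injection, with livers taken 6 hours later (HESKOL_dex), HESKOL mice left untreated (HESKOL_untreated), wild-type mice given the same injection (WT_dex) and wild-type mice left untreated (WT_untreated). The labels do not spell out HESKOL; the title of the series names Hes1, a transcriptional repressor of the Notch pathway, and the promoter driving any deletion is not given in the sources used here. The labels do not mention a vehicle injection, so injection itself and dexamethasone cannot be told apart. Each array held the liver RNA of 1 mouse.

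Insulin binds its receptor, which phosphorylates the insulin receptor substrates. These dock phosphoinositide 3-kinase, whose lipid product recruits AKT kinases. AKT keeps the FOXO transcription factors out of the nucleus and relieves the brake on mTORC1, the kinase complex that drives translation partly by phosphorylating the translation repressor 4E-BP1. Glucocorticoids such as dexamethasone oppose many actions of insulin, and liver is one of the tissues where they raise glucose output. They act through the glucocorticoid receptor, which binds DNA as a dimer at an inverted repeat of a short half-site.

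A level below is the log2 signal of a probe minus the 75th percentile of its own array, so 0 is a fairly bright probe, and levels of different probes are not compared, because probes differ in brightness. A gene was called when its adjusted p in limma's moderated test, corrected over all 18704 tested units, was under 0.05. WT_dex replicate 1 stood apart: on the first principal component, which held 38.4% of the variance, it lay at -35.8 among the untreated livers (-74.1 to -7.93), while the other 5 dexamethasone livers lay between 29.7 and 86.2. The 12 arrays lay on 3 slides, and no slide held treated and untreated mice of the same genotype. Hes1 itself read -3.08, -3.02 and -3.85 in HESKOL_dex, -2.46, -2.40 and -3.09 in HESKOL_untreated, -1.16, -2.57 and -2.92 in WT_dex, and -1.49, -1.22 and -1.90 in WT_untreated. It was not called in either genotype comparison, and whether its probe lies inside the deleted part is not given, so it does not settle the genotype labels. All 7 hepatocyte markers on the array were above background on every array, with a summed level of 10.5 to 10.95 in HESKOL_dex against 9.78 to 10.61 in HESKOL_untreated and of 10.45 to 10.74 in WT_dex against 9.86 to 10.35 in WT_untreated. Of the 7, 3 (Ttr, Tat and Cps1) were called with dexamethasone in HESKOL, where 7.83% of all units were. Markers of lymphocytes had a summed level of -1.19 to -0.15 in HESKOL_dex against 0.42 to 1.21 in HESKOL_untreated, and of -1.53 to 0.75 in WT_dex against 0.09 to 0.59 in WT_untreated. The 6 adipocyte markers summed to 3.76 to 5.14 in HESKOL_dex against 2.45 to 2.95 in HESKOL_untreated, and to 3.47 to 4.38 in WT_dex against 2.08 to 2.45 in WT_untreated. Among them Lep was above background on 0 arrays, Retn on 2 and Adipoq on 3. In each group 2 of the 6 were above background on all arrays, and 1 of those 2, Fabp4, was called with dexamethasone in HESKOL. Of the lymphocyte list 6 of 7 genes in HESKOL_dex against 7 of 7 in HESKOL_untreated, and 4 of 7 in WT_dex against 7 of 7 in WT_untreated, were above background on all arrays of the group. Cd79a of that list was called with dexamethasone in HESKOL and over both genotypes, and Ms4a1 over both genotypes. Summed bile duct and Kupffer cell markers had ranges lower at both ends with dexamethasone in both genotypes, but overlapping. Of the Kupffer cell list, Adgre1 was called with dexamethasone in HESKOL. The part of these cell types in the results below was not tested, and in whole liver fewer cells of a type and less RNA per cell cannot be told apart.

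Dexamethasone was followed by higher signals of the mTORC1 inhibitor Ddit4, the kinase Sgk1 and Errfi1, an inhibitor of the epidermal growth factor receptor family. Foxo3 was called higher over both genotypes together. Among the 9 regulators, the genes from the insulin receptor to AKT (Insr, Irs1, Pik3r1 and Akt2) were not called. In HESKOL livers 3 of 9 regulators were called, all higher, where 7.83% of all tested units were called (3.62% higher). In WT livers 0 of 9 were called, where 0.198% of all units were. With 0 calls, 4 of the 9 still had an unadjusted p under 0.05 in WT livers, as did 2200 of all 18704 units. Over both genotypes together 4 of 9 were called, all higher, where 11.8% of all units were called and 5.29% were higher. The same 4 genes, Foxo3, Sgk1, Ddit4 and Errfi1, were those whose 6 treated livers all lay above all 6 untreated livers, against 2.17% of all units. The median change of the 9 was 0.56 in HESKOL and 0.49 in WT on the log2 scale, against medians of all tested units of -0.00255 and -0.0203. No regulator was called between genotypes, with or without dexamethasone (0 of 9 in each, where 1.14% and 0% of all units were), and none had a called difference of dexamethasone effects, where 0.016% of all units did. At an unadjusted p under 0.05 these 3 comparisons held 2, 0 and 1 of the 9, and 2940, 297 and 1242 of all 18704 units. With slide as a fixed term in the fit 0 of the 9 were called in any comparison, and 0 of all units for dexamethasone in HESKOL, in WT or over both genotypes. The 7 calls made without slide had adjusted p values of 0.734 or higher in that fit. With slide as a random block, whose estimated correlation within slides was -0.0618, all 7 calls were kept (Sgk1 in HESKOL adjusted p = 0.00751, Ddit4 0.00114, Errfi1 0.0213). In that fit 1080 of all units were called higher and 1312 lower in HESKOL, against 678 and 786 without it. The Sgk1 error in HESKOL was 0.37 against 0.40. A negative correlation does not widen the error between slides, so keeping the calls does not separate slide from dexamethasone.

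**Figure D1:**
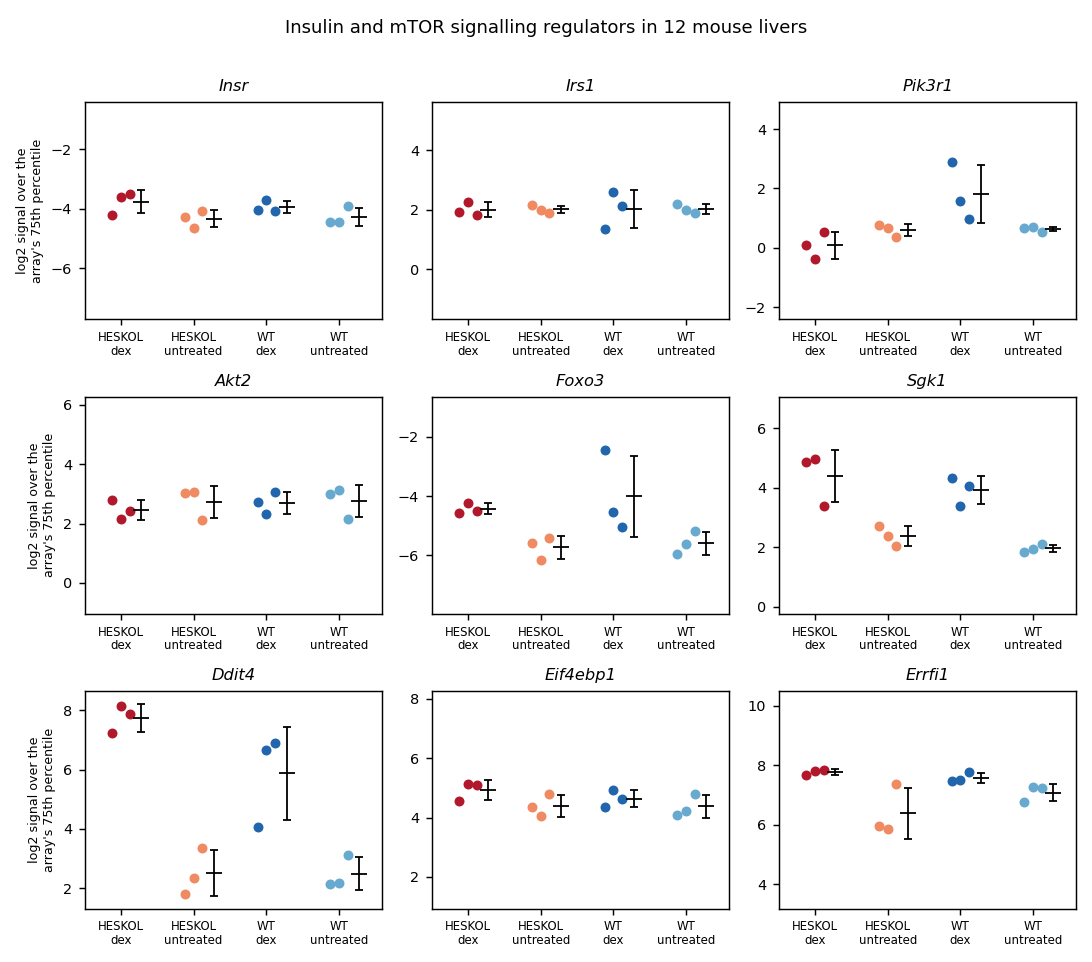
Level of each of the 9 regulators (y axis, log2 signal over the array's 75th percentile, the same span of log2 units in every panel) in each liver of the 4 groups (x axis). Points are single mice in replicate order and the bar beside them is mean ± SD (n = 3). Ddit4 lies between 7.22 and 8.14 in HESKOL_dex against 1.82 to 3.36 in HESKOL_untreated, whereas Irs1 lies near 2 in all groups.

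Insr, the insulin receptor, was measured by 1 dim probe (mm7 chr8:3058920-3058979). Its levels were -4.21, -3.59 and -3.49 in HESKOL_dex against -4.28, -4.64 and -4.07 in HESKOL_untreated. In WT livers they were -4.03, -3.70 and -4.08 with dexamethasone against -4.44, -4.44 and -3.92 without. The groups overlapped in both genotypes. The change was 0.56 ± 0.26 in HESKOL (log2 ± SE, adjusted p = 0.21) and 0.33 ± 0.26 in WT (adjusted p = 0.665), so a doubling was within the 95% interval of -0.01 to 1.14 in HESKOL but not within that of -0.24 to 0.90 in WT.

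Irs1, a docking protein that passes the receptor's signal to phosphoinositide 3-kinase, had 2 probes that differed in what they showed. The brighter probe read 1.93, 2.28 and 1.82 in HESKOL_dex against 2.15, 2.0 and 1.89 in HESKOL_untreated, and 1.34, 2.60 and 2.14 in WT_dex against 2.20, 1.99 and 1.90 in WT_untreated. The means of all 4 groups lay between 2.01 and 2.03, and the dexamethasone interval over both genotypes was -0.45 to 0.45. A dimmer probe placed elsewhere in the gene (mm7 chr1:82451682-82451741 against chr1:82447810-82447869) read -3.85, -3.18 and -3.83 in HESKOL_dex against -4.2, -4.55 and -4.18 in HESKOL_untreated, which do not overlap. In WT livers this probe gave -3.16, -3.56 and -4.28 with dexamethasone against -5.12, -4.57 and -4.09 without. Its change over both genotypes was 0.81 ± 0.24 (adjusted p = 0.0565 over all probes), so neither probe passed the threshold.

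Pik3r1 encodes p85-alpha, the regulatory subunit that holds the catalytic subunit of phosphoinositide 3-kinase at the docking protein. Its brightest probe read 0.11, -0.39 and 0.53 in HESKOL_dex against 0.77, 0.66 and 0.37 in HESKOL_untreated. WT_dex livers had 2.89, 1.58 and 0.97 against 0.68, 0.69 and 0.55 in WT_untreated. All 3 WT_dex livers were therefore above every other liver in the series, and WT_dex replicate 1, the array that stood apart, was the highest. The change with dexamethasone was -0.52 ± 0.41 in HESKOL (adjusted p = 0.479) and 1.17 ± 0.41 in WT (adjusted p = 0.309). Between genotypes after dexamethasone the level was lower in HESKOL by 1.73 on the log2 scale (-1.73 ± 0.41, adjusted p = 0.0738), with no overlap, where 7.67% of all units were lower in all 3 HESKOL livers.

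That genotype comparison of Pik3r1 depended on single arrays. It was -1.19 (adjusted p = 0.0642) without WT_dex replicate 1 and -2.15 (adjusted p = 0.0297) without WT_dex replicate 3, and within the slide that held the 3 HESKOL_dex livers and WT_dex replicate 3 it was -0.89. The difference of dexamethasone effects, HESKOL minus WT, was -1.70 ± 0.59 (adjusted p = 0.606). With slide as a fixed term the Pik3r1 change was 0.83 in HESKOL, the opposite sign, and 1.85 in WT. The other 3 probes of Pik3r1 gave genotype differences of -1.23, -0.76 and -0.25 after dexamethasone, the first with no overlap of the groups. These probes lie at different places along the gene, and none was called.

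Akt2, the AKT isoform best known for insulin action in liver and muscle, read 2.81, 2.15 and 2.41 in HESKOL_dex against 3.03, 3.05 and 2.11 in HESKOL_untreated. WT_dex had 2.73, 2.32 and 3.05 against 3.00, 3.12 and 2.16 in WT_untreated. The groups overlapped, and the change over both genotypes was -0.17 (95% interval -0.71 to 0.37, adjusted p = 0.701). The second probe gave -0.09 ± 0.42.

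**Figure D2:**
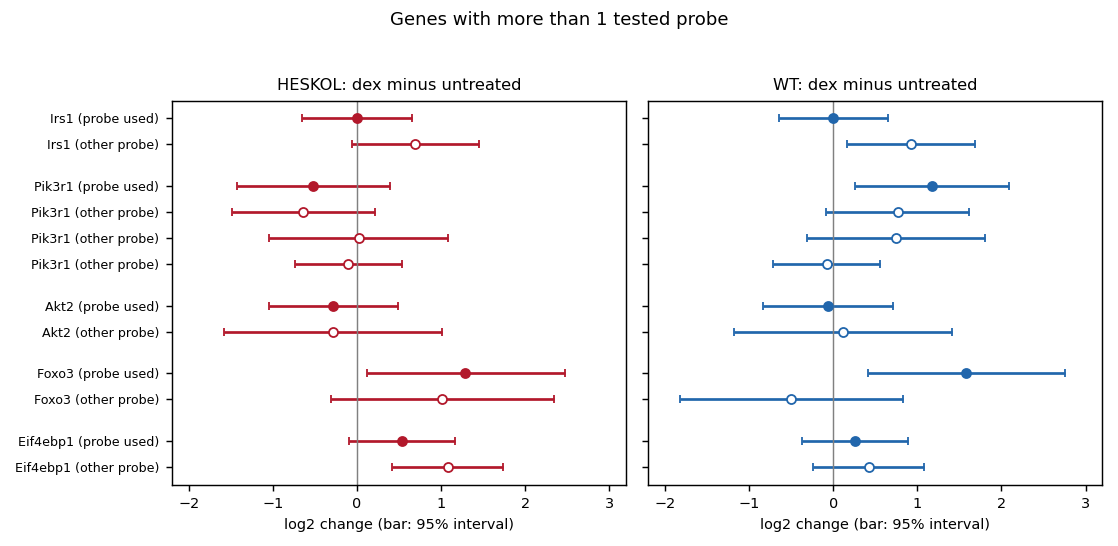
Dexamethasone change (x axis, log2, bars 95% intervals) of every tested probe of the 5 genes with more than 1 tested probe, in HESKOL and in WT livers. Filled points are the probe used for the gene. The 2 probes of Foxo3 differ in WT, at 1.58 and -0.50, and those of Irs1 at 0 and 0.92.

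Sgk1 encodes the serum- and glucocorticoid-regulated kinase, a relative of AKT that mTORC2 activates and that also phosphorylates FOXO factors. Its levels were 4.86, 4.97 and 3.39 in HESKOL_dex against 2.71, 2.37 and 2.04 in HESKOL_untreated. In WT livers they were 4.32, 3.39 and 4.06 with dexamethasone against 1.85, 1.94 and 2.10 without. Every treated liver was above every untreated liver, including WT_dex replicate 1, whose 4.32 was the highest of its group. Sgk1 was 4.09-fold higher with dexamethasone in HESKOL (2.03 ± 0.40, adjusted p = 0.015). In WT the fitted fold was 3.89 (1.96 ± 0.40, adjusted p = 0.106), which did not pass, and over both genotypes 3.99 (2.0 ± 0.28, adjusted p = 0.00292). The difference of the effects was 0.08 (95% interval -1.17 to 1.32). Without WT_dex replicate 1 the WT change was 1.76 and passed (adjusted p = 0.0463), as it did without HESKOL_dex replicate 3 (adjusted p = 0.0366). The call over both genotypes held without each of the 12 arrays in turn, at 1.86 to 2.25.

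The measuring probe of Sgk1 lies at mm7 chr10:21732425-21732484. A second probe at chr10:21631585-21631644 was above background on 0 of 12 arrays, read -8.73 to -7.52 throughout and was not tested. With the slide as a term in the fit, the Sgk1 change was 2.0 in HESKOL and 2.40 in WT, close to or above the unblocked values, but the widened error left no call (adjusted p = 0.766 and 1).

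RefSeq promoter windows, from 250 bases before to 50 after a start site on GRCm38.p6, were found for 8 of the 10 genes, 18 windows in all. Window 5 of the 6 for Sgk1 is shown because it holds a complete palindrome of the glucocorticoid receptor half-site, and the Ddit4 window because Ddit4 had the largest change of the 9 and its window holds no half-site. Capitals mark AGAACA or its reverse complement.
Sgk1, chr10:21993640-21993939, + strand: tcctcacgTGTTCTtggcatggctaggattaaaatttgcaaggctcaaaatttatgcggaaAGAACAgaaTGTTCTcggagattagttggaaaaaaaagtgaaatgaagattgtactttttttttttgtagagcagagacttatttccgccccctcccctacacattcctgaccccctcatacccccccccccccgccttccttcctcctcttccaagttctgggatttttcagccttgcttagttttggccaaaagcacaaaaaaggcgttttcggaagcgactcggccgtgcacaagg
Ddit4, chr10:59951721-59952020, - strand: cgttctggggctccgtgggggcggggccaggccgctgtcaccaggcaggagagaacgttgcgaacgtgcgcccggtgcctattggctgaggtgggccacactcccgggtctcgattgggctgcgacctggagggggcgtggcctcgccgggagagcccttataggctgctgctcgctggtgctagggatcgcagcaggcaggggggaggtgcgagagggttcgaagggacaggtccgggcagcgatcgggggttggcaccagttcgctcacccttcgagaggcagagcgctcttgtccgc
In the Sgk1 window AGAACA at position -189, counting the start site as 0, and its reverse complement at -180 form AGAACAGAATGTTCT. The pattern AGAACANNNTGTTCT, searched for on both strands after this match had been seen, was in 3 of 32851 mouse windows (0.0091%), and the looser GNACANNNTGTNC, which the palindrome contains, in 0.475%. Another half-site lies at -242, where it overlaps an E-box, CACGTG, at -246. The E-box was in 3 of the 18 windows, also in those of Irs1 and Irs2, against 7.15% of all windows. Half-sites alone are common, with AGAACA on either strand in 19.0% of all windows, and Sgk1 windows 1 and 4 hold 1 each. The Sgk1 window shown is 46.3% G and C and the Ddit4 window 69%. Of the 8 genes with a window, Sgk1 was the 1 with a half-site within it, but it also has 6 of the 18 windows. Half-sites were in 3 of the 18, against the 19.0% above, and in a window of 5750 of 27025 mouse genes. These matches are letters in a window and were not measured as binding, and no match says nothing of sites elsewhere. The FOXO motif GTAAACA and the ATF4 motif TGATGCAA were in 0 of the 18 windows, against 3.65% and 0.895% of all windows, and the HES class C motif CACGCG was in the Foxo3 window at -144, against 9.27%.

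Foxo3 is a FOXO transcription factor that insulin holds inactive through AKT. Its brighter probe, itself far below the 75th percentile, read -4.57, -4.22 and -4.49 in HESKOL_dex against -5.59, -6.16 and -5.42 in HESKOL_untreated. WT_dex livers had -2.46, -4.52 and -5.03 against -5.96, -5.60 and -5.19 in WT_untreated. All 6 treated livers were above all 6 untreated ones, with WT_dex replicate 1 the highest of all. Over both genotypes Foxo3 was 2.71-fold higher with dexamethasone (1.44 ± 0.38, adjusted p = 0.0338). Neither genotype alone passed, at 1.29 ± 0.53 in HESKOL (adjusted p = 0.163) and 1.58 ± 0.53 in WT (adjusted p = 0.294).

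Without WT_dex replicate 1 the WT change of Foxo3 was 0.81 (adjusted p = 0.149), the HESKOL change passed at 1.29 (adjusted p = 0.0124), and the change over both genotypes was 1.05 (adjusted p = 0.00558). The call over both genotypes was lost without any 1 of 8 of the 12 arrays (adjusted p up to 0.0807), and kept without WT_untreated replicate 3 or any one WT_dex replicate. A second, dimmer probe stood clear of background in all 3 livers of HESKOL_dex but in 2 of HESKOL_untreated, 1 of WT_dex and 2 of WT_untreated. It gave 1.01 ± 0.60 in HESKOL and -0.50 ± 0.60 in WT. This dimmer probe was tested only because HESKOL_dex passed the filter, so the values of both genotypes rest on the brighter probe. With normexp background correction the change over both genotypes was 0.56 and was not called (adjusted p = 0.0872).

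Ddit4 encodes a stress-induced inhibitor of mTORC1 that acts through the TSC complex. It had the largest change among the 9 regulators. Its levels were 7.22, 8.14 and 7.89 in HESKOL_dex against 1.82, 2.35 and 3.36 in HESKOL_untreated, which on the scanner's scale is an intensity of 210500 to 292600 against 4387 to 9720. In WT livers its levels were 4.07, 6.65 and 6.91 with dexamethasone against 2.16, 2.18 and 3.13 without. No treated liver overlapped the untreated ones, and WT_dex replicate 1 was the lowest of the treated. Ddit4 was 37.7-fold higher with dexamethasone in HESKOL livers (5.24 ± 0.68, adjusted p = 0.00253, rank 61 by p of all tested units). In WT livers the fitted fold was 10.5 (3.39 ± 0.68, adjusted p = 0.0982), which did not pass, and over both genotypes it was 19.9 (4.31 ± 0.48, adjusted p = 0.00119). Without WT_dex replicate 1 the WT change was 4.29 and passed (adjusted p = 0.00219), in a design where the remaining 11 arrays called 476 units higher and 642 lower in WT livers, against 30 and 7 with all 12. The call over both genotypes held without each array in turn, at 4.05 to 4.77.

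After dexamethasone Ddit4 was 3.65-fold higher in HESKOL than in WT livers (1.87 ± 0.68, adjusted p = 0.213), with no overlap, as for 10.6% of all units. This was 0.97 without WT_dex replicate 1 and 0.83 within the slide that held both genotypes after dexamethasone. The difference of dexamethasone effects was 1.85 (95% interval -0.25 to 3.95, adjusted p = 0.789), so these data do not separate the 2 genotypes for Ddit4. With slide in the fit the change was 3.34 ± 1.17 in HESKOL (adjusted p = 0.734) and 1.83 in WT. On the slide that held WT_dex replicates 1 and 2 beside HESKOL_untreated replicates 2 and 3, WT_dex minus HESKOL_untreated was 2.50 for Ddit4, 1.65 for Sgk1, 2.29 for Foxo3 and 0.88 for Errfi1, with genotype and treatment differing together.

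Eif4ebp1, the 4E-BP1 repressor of cap-dependent translation that mTORC1 phosphorylates, read 4.55, 5.13 and 5.10 in HESKOL_dex against 4.34, 4.06 and 4.78 in HESKOL_untreated. WT_dex livers had 4.36, 4.94 and 4.61 against 4.10, 4.22 and 4.81 in WT_untreated. The groups overlapped, and the change over both genotypes was 0.40 ± 0.20 (adjusted p = 0.225). A dimmer second probe read -2.28, -1.88 and -2.11 in HESKOL_dex against -3.13, -3.50 and -2.87 in HESKOL_untreated, with no overlap. In WT livers it read -2.78, -2.34 and -2.0 against -3.27, -2.84 and -2.27. Its change over both genotypes was 0.75 ± 0.21 and passed over all probes (adjusted p = 0.0462), so the call for Eif4ebp1 turns on which of its 2 probes is read.

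Errfi1, an inhibitor of the epidermal growth factor receptor family that can also damp downstream AKT signalling, was bright in every liver. It read 7.66, 7.81 and 7.83 in HESKOL_dex against 5.95, 5.84 and 7.37 in HESKOL_untreated. WT_dex livers had 7.47, 7.50 and 7.76 against 6.75, 7.26 and 7.24 in WT_untreated. The treated livers of both genotypes were above the untreated ones with no overlap, and HESKOL_untreated replicate 3 lay close to them. Errfi1 was 2.61-fold higher with dexamethasone in HESKOL livers (1.38 ± 0.35, adjusted p = 0.039). Over both genotypes it was 1.92-fold higher (0.94 ± 0.25, adjusted p = 0.0353), and in WT the change was 0.49 ± 0.35 (adjusted p = 0.631). With slide in the fit these were 0.89, 0.32 and -0.25. Leaving out single arrays gave HESKOL changes of 1.11 (without HESKOL_untreated replicate 2) to 1.87 (without HESKOL_untreated replicate 3), with adjusted p values of 0.148 and 0.00498. The HESKOL call was lost without any 1 of 8 of the 12 arrays, and kept without WT_untreated replicate 1, WT_dex replicate 1, WT_dex replicate 3 or HESKOL_untreated replicate 3. The call over both genotypes was lost for 10 of 12, at changes of 0.80 to 1.18 and adjusted p up to 0.0866, and kept without WT_dex replicate 1 or HESKOL_untreated replicate 3.

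**Figure D3:**
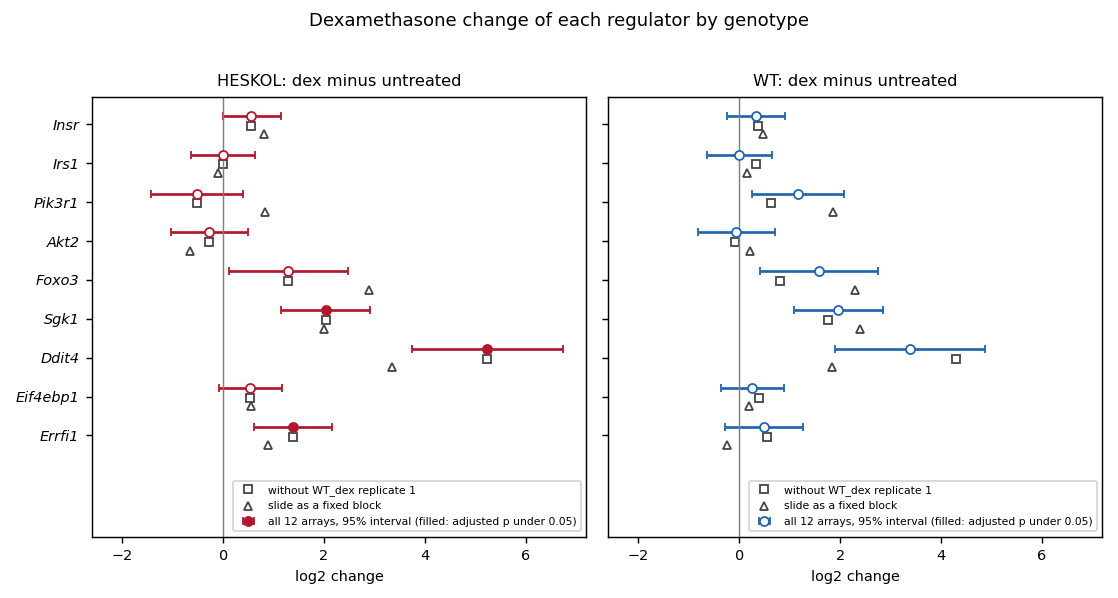
Dexamethasone change of each regulator (x axis, log2, dex minus untreated) in HESKOL and in WT livers. Circles with bars are the fit to all 12 arrays with its 95% interval, filled where called; squares leave out WT_dex replicate 1 and triangles add slide as a term. In WT the Ddit4 circle lies at 3.39, its square at 4.29 and its triangle at 1.83.

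In WT livers, 5 of the 9 regulators had all 3 treated livers above all 3 WT_untreated ones, namely Pik3r1, Foxo3, Sgk1, Ddit4 and Errfi1, where 6.11% of all units did. In HESKOL it was 4 of 9, where 15.6% did. Among untreated livers HESKOL minus WT ranged from -0.69 for Errfi1 to 0.41 for Sgk1, all 9 overlapped between genotypes (6.36% of all units did not), and the Errfi1 value within the first slide, where HESKOL had 1 liver, was -1.13.

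The rest of the pathway was read from 12 lists of 158 genes, beginning with those upstream of mTORC1. Outside the 9 regulators these lists held 67 calls of a gene in a comparison. All 67 were lost with slide as a fixed term and 38 without some single array. With slide as a random block 0 were lost, which does not separate slide from the compared groups. For comparison with each list, 3.62% of all units were called higher and 4.2% lower in HESKOL, and 0.198% were called in WT. Of 12 tested receptor and docking genes 0 were called in either genotype, with median changes of -0.01 in HESKOL and 0.17 in WT. Of 12 phosphoinositide 3-kinase genes 1 rose in HESKOL and 0 in WT. It was Pik3ip1, a membrane inhibitor of the kinase, at -0.55, -0.37 and -1.57 in HESKOL_dex against -3.74, -2.99 and -3.49 in HESKOL_untreated (2.58 ± 0.42, adjusted p = 0.00755). In WT livers Pik3ip1 read -2.63, -3.01 and -1.67 with dexamethasone against -2.62, -3.39 and -3.57 without (0.75, adjusted p = 0.53), and the difference of the effects was 1.82 (adjusted p = 0.562). Pik3cd, a catalytic subunit known from leukocytes, fell by 1.49 over both genotypes (adjusted p = 0.0323). This call was lost without any 1 of 8 of the 12 arrays (adjusted p up to 0.0763). The lymphocyte markers summed lower in HESKOL_dex than in HESKOL_untreated, with overlapping ranges in WT, and their part in the Pik3cd value was not tested. Of 13 genes of the AKT list 1 rose in HESKOL, Trib3, a pseudokinase that binds AKT, by 2.01 (adjusted p = 0.0413), a call also lost for 8 of 12 arrays.

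Most of the genes listed as induced by insulin in liver fell in HESKOL livers. Of 10 tested, 7 fell with dexamethasone in HESKOL, where 4.2% of all units were called lower, and 0 in WT, where 0.0374% were. None of the 10 had a called difference of dexamethasone effects, so a difference between the genotypes in the response to dexamethasone is not shown for these genes. The list had median changes of -1.87 and -0.35 against -0.00255 and -0.0203 for all tested units. Srebf1, the transcription factor gene of fatty acid synthesis, read 2.63, 2.59 and 2.22 in HESKOL_dex against 6.48, 6.27 and 6.86 in HESKOL_untreated (-4.06, adjusted p = 0.00858). WT_dex livers spread over 6.99, 5.57 and 3.25 for Srebf1 against 6.73, 6.17 and 6.61 in WT_untreated. The fitted WT change of Srebf1 was -1.23 (adjusted p = 0.53), and the difference of the dexamethasone effects was -2.82 (adjusted p = 0.606). Elovl6, a fatty acid elongase, read 1.75, 1.74 and 1.24 in HESKOL_dex against 3.74, 3.31 and 4.03 in HESKOL_untreated (-2.12, adjusted p = 0.00475). Its WT levels were 2.55, 3.44 and 3.30 with dexamethasone against 3.56, 3.54 and 2.79 without, which overlap (-0.20, adjusted p = 0.86). Insig1, Fasn, Acly, Acaca and Pklr were the other five that fell in HESKOL, by 2.47, 1.88, 1.86, 1.75 and 1.59, and these calls were lost without any 1 of 5, 4, 8, 3 and 7 of the 12 arrays. Elovl6 was the 1 of the 10 also called lower in HESKOL than in WT after dexamethasone (-1.52, adjusted p = 0.0497), a call kept without WT_dex replicate 1 and lost without any other single array.

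FOXO-driven genes moved in both directions. Of 17 tested, 7 rose and 2 fell in HESKOL, where 3.62% of all units were called higher and 4.2% lower, and 1 rose in WT, where 0.16% were called higher. The median changes were 1.11 in HESKOL and 0.45 in WT, against -0.00255 and -0.0203 for all tested units. Igfbp1, a secreted binding protein whose gene insulin represses, read 8.58, 9.0 and 8.74 in HESKOL_dex against 4.98, 4.86 and 6.00 in HESKOL_untreated. Its WT levels were 8.94, 6.69 and 8.52 with dexamethasone against 0.71, 2.89 and 4.21 without, and it rose in both genotypes (3.49, adjusted p = 0.0243, and 5.45, adjusted p = 0.023). Of the 12 arrays, leaving out any 1 of 5 lost the HESKOL call and any 1 of 3 the WT call. Ppargc1a, a coactivator of gluconeogenic genes, rose by 3.39 in HESKOL (adjusted p = 0.00101), against 0.77 in WT (adjusted p = 0.401). The difference of these effects was 2.62 and not called (adjusted p = 0.182). After dexamethasone Ppargc1a was higher in HESKOL than in WT (2.98, adjusted p = 0.00315), a call kept without each array in turn. Txnip, Pdk4, Ccng2 and Fbxo32 rose in HESKOL by 2.54, 2.46, 2.24 and 1.76, calls lost without any 1 of 0, 6, 5 and 5 of the 12 arrays. Gadd45a, a growth arrest gene, read -2.41, -2.14 and -2.91 in HESKOL_dex against 2.35, 1.89 and 0.56 in HESKOL_untreated (-4.09, adjusted p = 0.0347, lost for 6 of 12 arrays). Its WT levels were 6.12, 1.74 and 1.27 with dexamethasone against 0.39, 0.75 and 1.10 without (2.30, adjusted p = 0.408), with WT_dex replicate 1 far above the rest. The difference of the Gadd45a effects, HESKOL minus WT, was -6.38 and not called (adjusted p = 0.322). Sesn3 fell by 1.15 in HESKOL. Between genotypes after dexamethasone 5 of the 17 were called, Ppargc1a, Sesn1 and Txnip higher in HESKOL and Gadd45a and Bcl6 lower, where 1.14% of all units were called. The Gadd45a difference was -5.53 (adjusted p = 0.0346), lost for 7 of 12 arrays and -3.99 without WT_dex replicate 1, and that of Bcl6, a transcriptional repressor, was -3.94 (adjusted p = 0.0271), lost for 4. Foxo1, the other main hepatic FOXO factor, rose over both genotypes (1.04, adjusted p = 0.0223), as Foxo3 did, at 3.05, 3.47 and 3.58 in HESKOL_dex against 2.04, 1.62 and 2.91 in HESKOL_untreated, and 3.2, 3.31 and 3.38 in WT_dex against 1.88, 2.38 and 2.90 in WT_untreated. The Foxo1 call was lost without any 1 of 6 of the 12 arrays, and that of Foxo3 without any 1 of 8.

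The 2 mTORC1 lists stand against 3.62% of all units called higher and 4.2% lower in HESKOL, and 0.198% called in WT. Of 25 tested genes of mTORC1 and its inputs, 3 rose and 2 fell in HESKOL and 0 were called in WT. Those that rose were Ddit4 with Sesn1 and Sesn2, sestrins that restrain mTORC1. Sesn1 read 4.71, 4.87 and 4.5 in HESKOL_dex against 1.98, 1.84 and 1.98 in HESKOL_untreated (2.76 ± 0.21, adjusted p = 0.000445). In WT livers Sesn1 read 1.91, 1.60 and 2.18 with dexamethasone against 1.52, 1.83 and 1.96 without (0.12, adjusted p = 0.873), and the difference of the effects was called at 2.63 ± 0.30 (adjusted p = 0.0242), a call lost without any 1 of 8 of the 12 arrays. Sesn2 was 3.43, 3.87 and 3.64 in HESKOL_dex against 2.12, 1.83 and 2.38 in HESKOL_untreated (1.53, adjusted p = 0.00976). Sesn3, another sestrin, fell by 1.15, and Ddit4l, the paralog of Ddit4, by 1.96, with levels of -5.34, -4.63 and -4.88 in HESKOL_dex against -3.12, -2.44 and -3.40 in HESKOL_untreated. Of 14 genes of mTORC1 output and translation 2 rose in HESKOL and 0 in WT. Eif4ebp3, a relative of Eif4ebp1, read 6.03, 7.21 and 7.16 in HESKOL_dex against 1.37, 0.83 and 4.19 in HESKOL_untreated (4.67 ± 1.23, adjusted p = 0.0432), a call lost without any 1 of 8 of the 12 arrays. Its WT_dex levels were 1.20, 6.24 and 5.76 against 2.07, 3.55 and 4.07 in WT_untreated, so replicate 1 was as low as untreated livers, as it was the lowest of its group for Ddit4. Eif4a1, a translation helicase, rose by 0.81 in HESKOL (adjusted p = 0.0252), a call lost without any 1 of 5 of the 12 arrays.

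**Figure D4:**
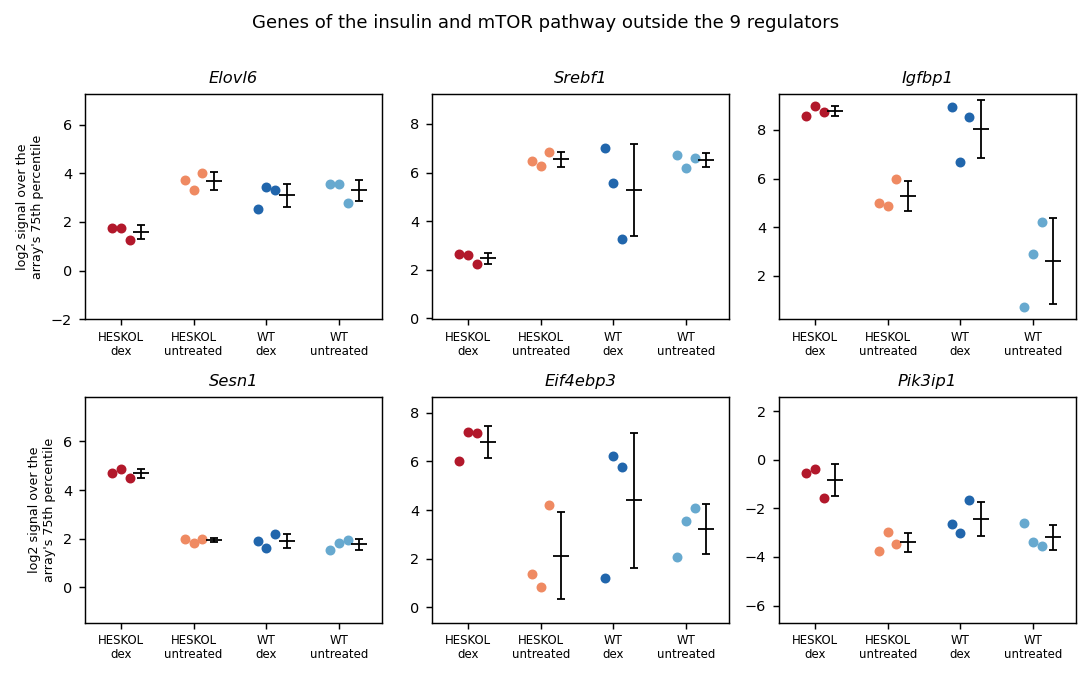
Levels (y axis, log2 signal over the array's 75th percentile, the same span in every panel) of 6 pathway genes outside the 9 regulators in the 4 groups (x axis). Points are single mice and bars mean ± SD (n = 3). These 6 were chosen for display after their values were seen; Sesn1 lies between 4.5 and 4.87 in HESKOL_dex and between 1.52 and 2.18 in the other groups.

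Around Sgk1, 10 tested genes of mTORC2 and the SGK branch held 1 call in HESKOL, Sgk1 itself, and 0 in WT. For this and the next lists, 3.62% of all units were called higher and 4.2% lower in HESKOL. In WT 0.198% were called, and over both genotypes 5.29% were called higher. Nedd4l, the ubiquitin ligase that SGK1 phosphorylates, rose over both genotypes (1.45, adjusted p = 0.0185), with changes of 1.49 in HESKOL and 1.40 in WT. Prr5l, an mTORC2-associated protein, was higher in HESKOL than in WT after dexamethasone, at 0.26, 0.11 and -0.27 against -1.36, -1.03 and -0.92 (1.14, adjusted p = 0.0486), a call lost without each of the 12 arrays in turn (adjusted p 0.0525 to 0.193). Of 12 AMPK genes 1 rose and 1 fell in HESKOL, the scaffold gene Cab39l by 2.32 and the upstream kinase Camkk2 by 0.96. The Camkk2 call was lost without any 1 of 8 of the 12 arrays, and the Cab39l call was kept without each array in turn. In the epidermal growth factor receptor list 1 of 17 was called in HESKOL, Errfi1 itself, and over both genotypes the growth factor Ereg (1.07, adjusted p = 0.0142) and the feedback inhibitor Spry1 (0.59, adjusted p = 0.0332) were called with it. The Spry1 call was lost without any 1 of 10 of the 12 arrays, and the Ereg call was kept without each. Ereg was above background in 2 of 3 livers in each untreated group, so it entered the test only through the treated groups, where it was higher. Of 14 genes of the integrated stress response, which can also induce Ddit4, 2 were called higher in HESKOL (Trib3, with the limit given above, and Sesn2) and 0 in WT, and Chac1 (1.91, adjusted p = 0.0149) and Cebpb (0.96, adjusted p = 0.0137) were called over both genotypes in addition to those 2.

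The genes whose centred log2 signals over the 12 arrays lay closest to a called regulator were found among 14550 named genes by the root mean square difference. For Ddit4, whose own SD over the arrays was 2.49, they were Plin4, a lipid droplet coat protein, at 0.51, Ntf5 at 0.74 and Gad2 at 0.83. For Sgk1 (SD 1.16) they were Osgin2 at 0.44, the zinc transporter Slc39a14 at 0.45 and the adhesion molecule Vcam1 at 0.47. For Errfi1 (SD 0.68) they were Acox2, an enzyme of bile acid side-chain oxidation, at 0.23, Etnk2 at 0.24 and Foxo1 at 0.27. For Foxo3 (SD 0.99) they were Nfkbia, the inhibitor of NF-kB, at 0.19, Odc1 at 0.31 and Ccnl1 at 0.33. The points share the 12 livers and their slides, and the WT_dex replicate 1 level of -2.46 contributes to the Foxo3 pattern.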

How the data were processed

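Liver RNA of 12 mice was hybridised to one-colour Agilent arrays, 1 array a mouse. The deposited scanner files give intensity values, background-subtracted and detrended by Feature Extraction 9.5.3.1, per the file headers, with probe positions on mm7; the deposited series table holds the same intensities unscaled. Replicates are separate mice, per the labels. From these values log2 of the processed signal minus each array's 75th percentile (897 to 1614) was computed. The brightest probe stood for a gene. A unit was tested where 1 group or more had all 3 of its arrays well above background (62.2% to 72.3% of probes per array were). limma 3.58.1 in R 4.3.3 fitted 4 group means with 8 residual and 3.12 prior degrees of freedom and Benjamini-Hochberg adjustment over all units. The script was tested on simulated data. Replicate numbers did not pair the mice (same-number correlations -0.40 to 0.62), so no block was used. Arrays carry no read depth; their number, 3 a group, limits the precision. Gene names were matched through RefSeq. In all, 10 alternatives and 12 that leave out 1 array were run, and 1 was added after seeing the data. Genes to name were all 10 regulators, up to 4 called genes per pathway list and comparison by size of change, the 3 closest patterns per called regulator, and Hes1; Acaca, Txnip and Fbxo32 are named beyond that to complete counts, a choice made with their values in view. The regulators, lists and motifs were chosen with earlier results of these data known. Some results for pathway genes are not reported here. A probe that RefSeq links to Insr by a synonym was not counted.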

Additional observations from a re-analysis of the deposited data

Results flagged for a closer look

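The dexamethasone effects on Sesn1, a sestrin that restrains mTORC1, differed between the genotypes by a test of the difference itself. The difference, HESKOL minus WT, was 2.63 on the log2 scale (SE 0.30, adjusted p = 0.0242 in limma, n = 3 mice a group), and it was positive because all 3 HESKOL_dex livers were above all other livers. With slide as a fixed term it was 2.30 and not called (adjusted p = 0.765), and leaving out 1 array at a time gave 2.48 to 2.77, with the call lost for 8 of 12 arrays (adjusted p up to 0.139) and kept without WT_untreated replicate 1 or any one WT_dex replicate. None of the 9 regulators had a called difference. Single livers far from their group were not tested for, since groups of 3 are too small.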

How the results depend on the processing

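Over 23 alternatives to the fit, no called change of a regulator turned its direction, while 20 of the 47 uncalled ones did under some alternative, such as Pik3r1 in HESKOL, -0.52, at 0.83 with slide as a fixed block. Of 161 values of the 7 calls, 48 lost the call. All 7 did so with slide as a fixed block and 0 with slide as a random block, which does not separate slide from dexamethasone. With slide as a fixed block 0 regulators were called in HESKOL and 0 over both genotypes, and the same counts, 0 and 0, came from slide as a fixed block without WT_dex replicate 1, an alternative chosen after seeing the data; there Ddit4 was 4.63 in HESKOL (adjusted p = 0.23) and 3.12 in WT. With no filter on dim units 2 were called over both genotypes. Leaving out 1 array at a time gave 1 to 4 calls in HESKOL, 0 to 2 in WT, 2 to 4 over both genotypes and 0 to 1 between genotypes after dexamethasone. Ddit4 in HESKOL kept its call without each array in turn, at 4.89 to 5.66. Sgk1 there lost it without HESKOL_untreated replicate 2 (adjusted p = 0.0601), HESKOL_dex replicate 1 (0.0501) or HESKOL_dex replicate 2 (0.0646), and with the mean of its probes, 1 of which is not above background, at 1.01 (adjusted p = 0.119). With a replicate block, 1 regulator was called in WT, Ddit4 at 3.39 (adjusted p = 0.0299); the numbers do not pair the mice. Of other genes on the pathway lists, 450 of 1541 values of 67 calls lost the call, 67 of them with slide as a fixed block, and 0 changed direction. Without the 75th percentile scaling, the median of all units moved to -0.346 in WT, and the Ddit4 change was 3.06. In all these cases the cause was not tested. Dim probes such as those of Foxo3 and Insr limit what can be read from small changes.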
